A study of Mus musculus with 12 samples.

Results

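Troponins, sarcomeric actins and other genes of striated muscle were followed in the colon and urinary bladder of mice with or without *Yap1* and *Wwtr1* (the gene of TAZ) in smooth muscle. The set held 10 of the 54532 genes in the tables, chosen by gene name: the troponin genes *Tnnt2*, *Tnnt3*, *Tnni1* and *Tnnc1*, the sarcomeric actin genes *Acta1* and *Actc1*, the actinin gene *Actn2*, and *Ttn*, *Myh7* and *Ckm*. All 10 names were found, each on 1 row in every table. RNA was sequenced from unsorted tissue, distal for the colon, of male mice aged 5 to 7 weeks, which all carried floxed *Yap1* and *Wwtr1* alleles and all received 1 mg of tamoxifen a day in 5 injections, with tissue taken on day 7 after the first. Ctrl mice lacked Cre, and Y/T KO mice carried Myh11-CreERT2, a tamoxifen-dependent recombinase under the promoter of the smooth muscle myosin gene. There were 3 libraries in each of 4 groups, 1 mouse per library: Ctrl colon (mice 788, 786 and 787), Y/T KO colon (759, 783 and 780), Ctrl bladder (784, 785 and 788) and Y/T KO bladder (782, 783 and 780). Mice 788, 783 and 780 gave both organs. Where the 3 values of a group are listed, they follow this order of mice. The members were chosen with results of these libraries known, so their values are a description, and an adjusted p gives only a gene's place in the fit over all genes.

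In striated muscle, actin and myosin filaments are ordered into sarcomeres, and calcium starts contraction by binding the troponin complex on the actin filament. The complex has a calcium-binding subunit (troponin C), an inhibitory subunit (troponin I) and a subunit that holds it to tropomyosin (troponin T). Troponins I and T come in cardiac, slow and fast forms from separate genes, while cardiac and slow muscle share a troponin C gene. Visceral smooth muscle has no sarcomeres and is switched on mainly by phosphorylation of the myosin light chain. YAP and TAZ act on transcription through the TEAD factors, whose best known binding site, the M-CAT element, was first described in the cardiac troponin T promoter, while serum response factor binds the CArG box of actin genes.

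Of the members that hold such an element, *Tnnt2* was lower in every Y/T KO library of both organs. The others, *Acta1*, *Actc1*, *Tnnc1* and *Myh7*, overlapped between genotypes in each organ. The sarcomeric actins *Acta1* and *Actc1* were the members with the highest levels in Ctrl bladder. The promoters of *Tnnt2*, *Acta1* and *Actc1* are shown. Each runs 5′ to 3′ over the 250 bases before the transcript start (RefSeq, GRCm38.p6), with matches to the M-CAT core (CATTCC on either strand) or the CArG box in capitals.
Tnnt2 (chr1:135836084-135836333, plus strand): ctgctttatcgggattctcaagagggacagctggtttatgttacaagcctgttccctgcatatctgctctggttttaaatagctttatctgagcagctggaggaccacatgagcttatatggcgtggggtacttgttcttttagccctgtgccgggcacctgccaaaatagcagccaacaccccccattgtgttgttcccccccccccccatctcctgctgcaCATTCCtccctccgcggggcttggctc
Acta1 (chr8:123894776-123895025, minus strand): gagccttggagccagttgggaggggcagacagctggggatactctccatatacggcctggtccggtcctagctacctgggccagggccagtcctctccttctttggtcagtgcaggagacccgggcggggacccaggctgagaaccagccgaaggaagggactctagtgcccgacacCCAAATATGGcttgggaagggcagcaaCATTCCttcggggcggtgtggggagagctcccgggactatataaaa
Actc1 (chr2:114052876-114053125, minus strand): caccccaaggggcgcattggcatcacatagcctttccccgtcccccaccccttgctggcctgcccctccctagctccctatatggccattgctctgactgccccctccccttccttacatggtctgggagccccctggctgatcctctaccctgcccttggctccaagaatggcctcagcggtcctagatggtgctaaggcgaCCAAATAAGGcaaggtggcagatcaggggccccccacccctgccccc
The *Tnnt2* match to the M-CAT core began 27 bases before the start, and the window of a further *Tnnt2* start (chr1:135836739-135836988) held no match to either element. In *Acta1* the CArG box began 73 bases and the M-CAT core 46 bases before the start, without overlapping, and the CArG box of *Actc1* began 47 bases before it. Windows were found for 9 of the 10 members (all but *Tnnt3*), 12 windows in all. The M-CAT core was in a window of 4 members (*Tnnt2*, *Acta1*, *Tnnc1* and *Myh7*) and in 12.6% of all 32851 windows of this length. The CArG box was in a window of 2 members and in 1.47% of all windows. A match is only a match of letters, and whether these elements act in these organs was not tested.

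Depth was similar across libraries, at 2.80 to 3.94 gigabases of aligned sequence. *Yap1*, summed over the whole gene and not over the floxed exon, was at 45.8 to 54.9 TPM (a length-scaled share of the transcripts of a library) in Ctrl colon and 41.3 to 47.0 TPM after Y/T KO. Ctrl bladders had 98.6 to 110 TPM of it and Y/T KO bladders 69.4 to 72.1 TPM. *Wwtr1* overlapped between genotypes in both organs, at 16.8 to 21.5 and 17.9 to 22.7 TPM in the colon and at 32.5 to 61.6 and 48.3 to 60.8 TPM in the bladder. These are whole-organ transcripts that include cells without Cre. All 10 smooth muscle markers were above 1 TPM in every library, as were the 6 epithelial and 6 fibroblast markers.

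Bladders 784 (Ctrl), 783 and 780 (both Y/T KO) stood apart from the other 3 bladders by their skeletal muscle transcripts. The summed level of 17 fast skeletal muscle genes was 1232 TPM in bladder 784 and 8774 TPM in each of bladders 783 and 780, against 375, 342 and 298 TPM in bladders 785, 788 and 782. *Eno3* alone gave 301, 280 and 236 TPM of the sums in bladders 785, 788 and 782. In bladders 784, 783 and 780 it was at 316, 479 and 407 TPM. All 17 genes reached 1 TPM in each of the 3 bladders that stood apart, compared with 9, 7 and 7 of 17 in the others. *Myh4*, the fast IIb myosin heavy chain and a defining gene of this muscle, was at 46.1, 409 and 432 TPM in bladders 784, 783 and 780 and was listed at 0 in the other 9 libraries. Over 16 of these genes (*Eno3*, which colon also expressed, left out), bladder 783 had a median of 9.21 times the level of bladder 784 (range 6.72 to 16.4), and bladder 780 had 1.05 times the level of bladder 783. *Myf6*, a transcription factor of skeletal muscle, was at 1.19, 6.44 and 7.21 TPM in the same 3 bladders and listed at 0 in the rest. Of the genes shared by slow and cardiac muscle, *Csrp3*, *Myl2* and *Myl3* were above 3 TPM in these 3 bladders and listed at 0 in the other 9 libraries. *Tnni3*, cardiac troponin I, was at 3.09 to 8.69 TPM in every bladder, while *Mybpc3* and *Myh6*, also genes of the heart, stayed at or below 0.0724 and 0.378 TPM in all 12 libraries. *Myl7*, another gene of the heart, was lowest in bladders 783 and 780, listed at 0 and 1.07 TPM. It was at 5.86 TPM in bladder 782 and at 6.59 to 17.6 TPM in the Ctrl bladders. *Myl4* and *Casq2* were not raised in bladders 784, 783 and 780 either (values below). *Csrp3*, *Myl2*, *Myl3*, *Tnni3*, *Mybpc3*, *Myh6*, *Myl7* and *Myh4* were picked for this purpose after their values were seen. In the colon the 17 genes summed to 223 to 395 TPM, most of it from *Eno3* at 209 to 387 TPM. Bladder values are therefore given by library, and differences that rest on bladders 784, 783 and 780 also without them, where the Y/T KO bladder is mouse 782 alone.

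**Figure D1:**
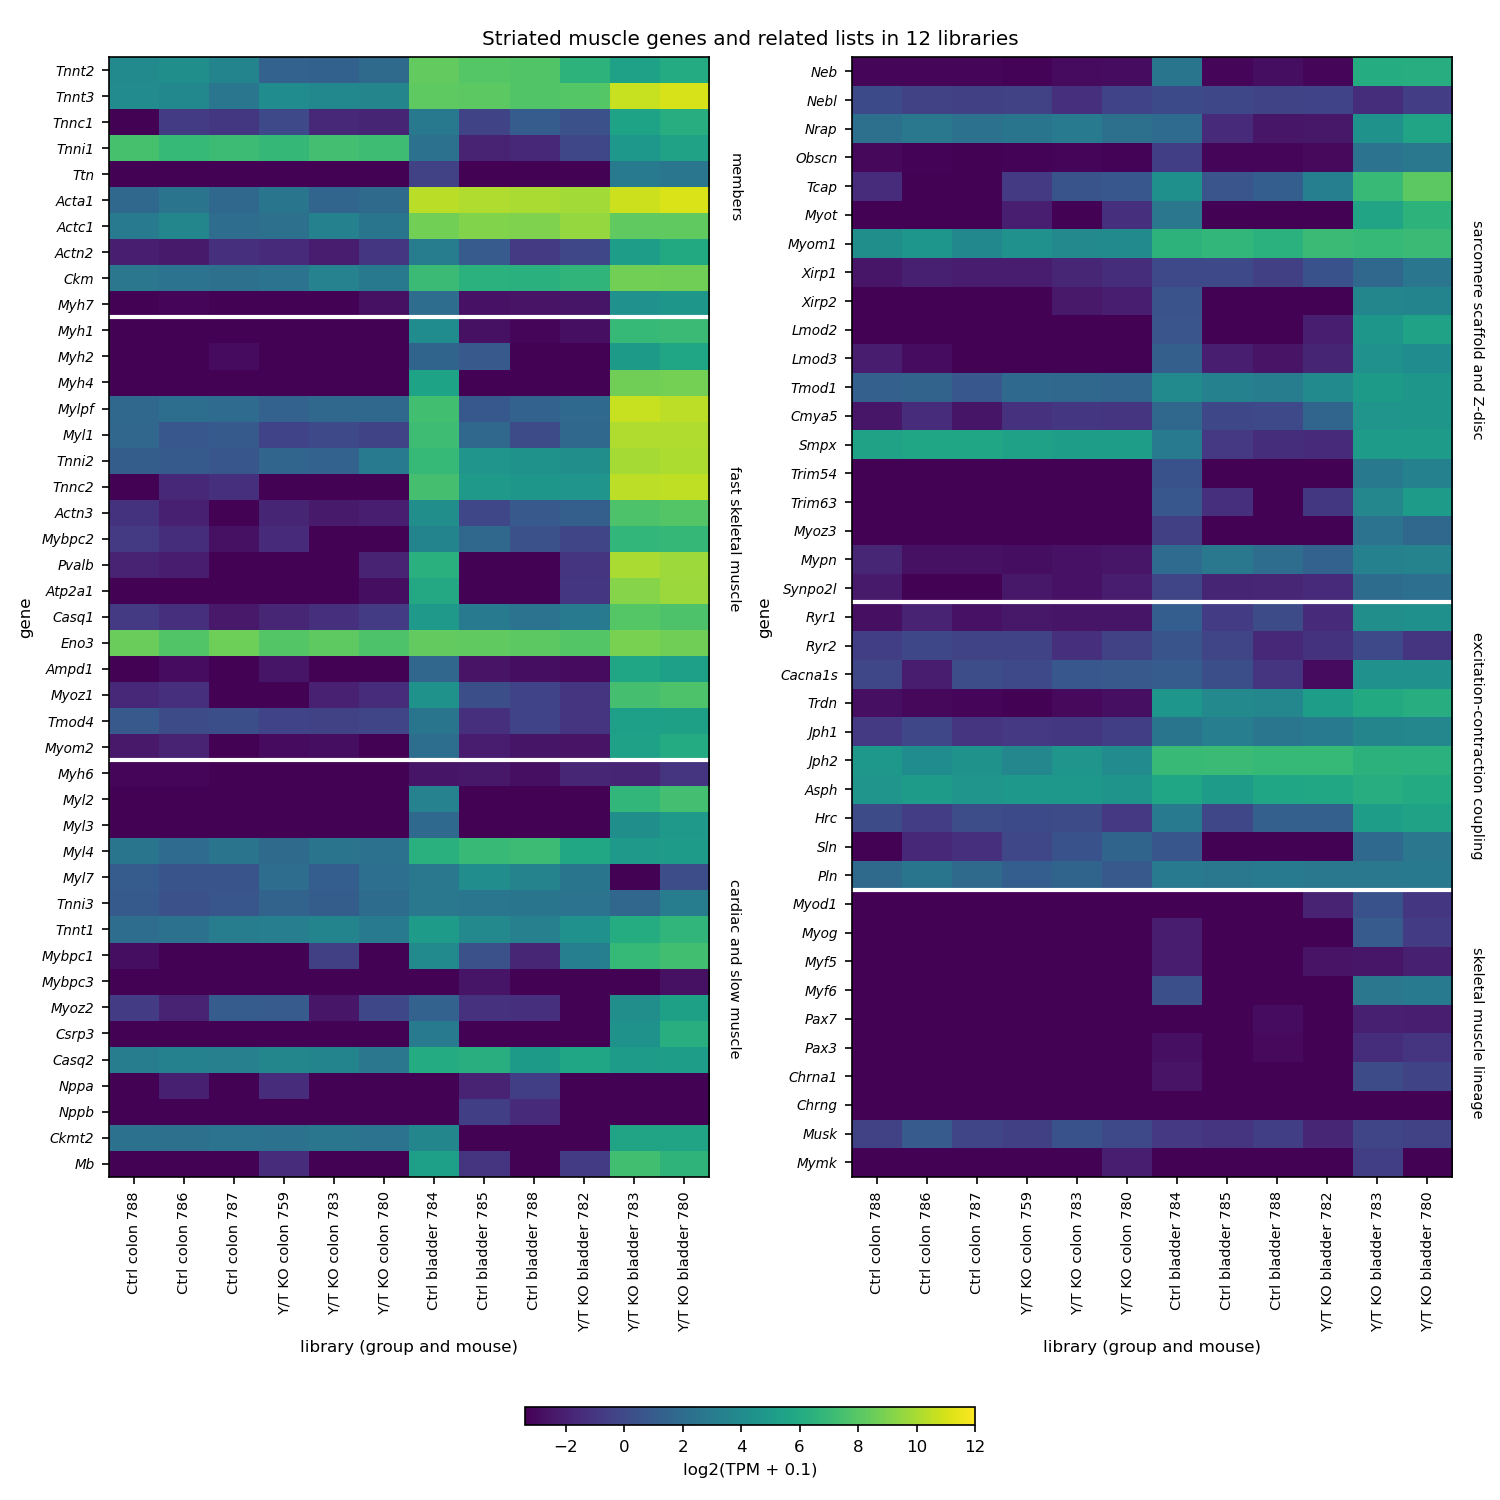
Each row is a striated muscle gene and each column a library named by group and mouse, and color gives log2(TPM + 0.1). White lines separate the lists, with the 10 members at the top left. Bladders 784, 783 and 780 are bright over nearly all rows of the fast skeletal muscle block, where most rows are darker in the other bladders and the colons, while *Tnni1*, *Eno3* and *Smpx* are bright in every colon.

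The organs differed in which members they held. In Ctrl colon the order began with *Tnni1* at 149 ± 30.9 TPM (SD, n = 3), followed by *Tnnt2* (15.4 ± 3.93), *Tnnt3* (12.2 ± 5.41), *Actc1* (8.17 ± 4.36), *Ckm* (5.57 ± 0.775) and *Acta1* (4.10 ± 1.44). *Tnni1* was above every other member in each Ctrl colon, whereas from *Tnnt2* to *Acta1* each neighbor in the order overlapped the next. *Tnnc1*, *Actn2*, *Myh7* and *Ttn* were below 1 TPM in all 6 colons. In Ctrl bladder the order was *Acta1* (1175 ± 141 TPM), *Actc1* (494 ± 57.8), *Tnnt3* (264 ± 37.2), *Tnnt2* (263 ± 51.5) and *Ckm* (102 ± 31.4). Here *Acta1* was above *Actc1*, *Actc1* above both troponin T genes, and these above *Ckm* without overlap, while *Tnnt3* and *Tnnt2* overlapped each other. In whole-organ RNA, fewer cells of a type and less RNA per cell cannot be told apart, so these are levels of an organ and not of its muscle cells. The remaining members, including *Tnni1*, were at 8.11 TPM or less in the Ctrl bladders, with the highest value of each in bladder 784.

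With limma over all genes, 50.4% of the 19773 genes tested passed an adjusted p of 0.05 between Ctrl bladder and Ctrl colon, 25.3% as higher in bladder and 25.1% as lower. Of the 10 members tested, 5 were called higher in bladder and 1 lower. The log2 differences were 7.92 for *Acta1* (SE 0.35), 5.78 for *Actc1* (SE 0.41), 4.27 for *Tnnt3* (SE 0.70), 3.87 for *Ckm* (SE 0.50) and 3.84 for *Tnnt2* (SE 0.27), with limma adjusted p from 1.27e-08 to 0.000556. *Tnni1* went the other way at -7.83 (SE 1.46, limma adjusted p = 0.00139), and without bladders 784, 783 and 780 at -9.17 (SE 0.24). *Ttn*, *Actn2*, *Myh7* and *Tnnc1* were not called (limma adjusted p 0.138 to 0.613), but *Actn2* and *Tnnc1* were called higher in the fit that left out Y/T KO bladder 782 (limma adjusted p = 0.0162 and 0.0288). Without the 3 bladders, *Acta1*, *Actc1*, *Tnnt3*, *Ckm* and *Tnnt2* were still called higher, at 7.82, 5.87, 4.19, 3.63 and 3.69, and *Tnni1* was still called lower. TPM without rescaling moved the median of all genes to 0.24 and the share of higher calls from 50.2% to 64.3%, and gave the same 6 calls among the members.

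**Figure D2:**
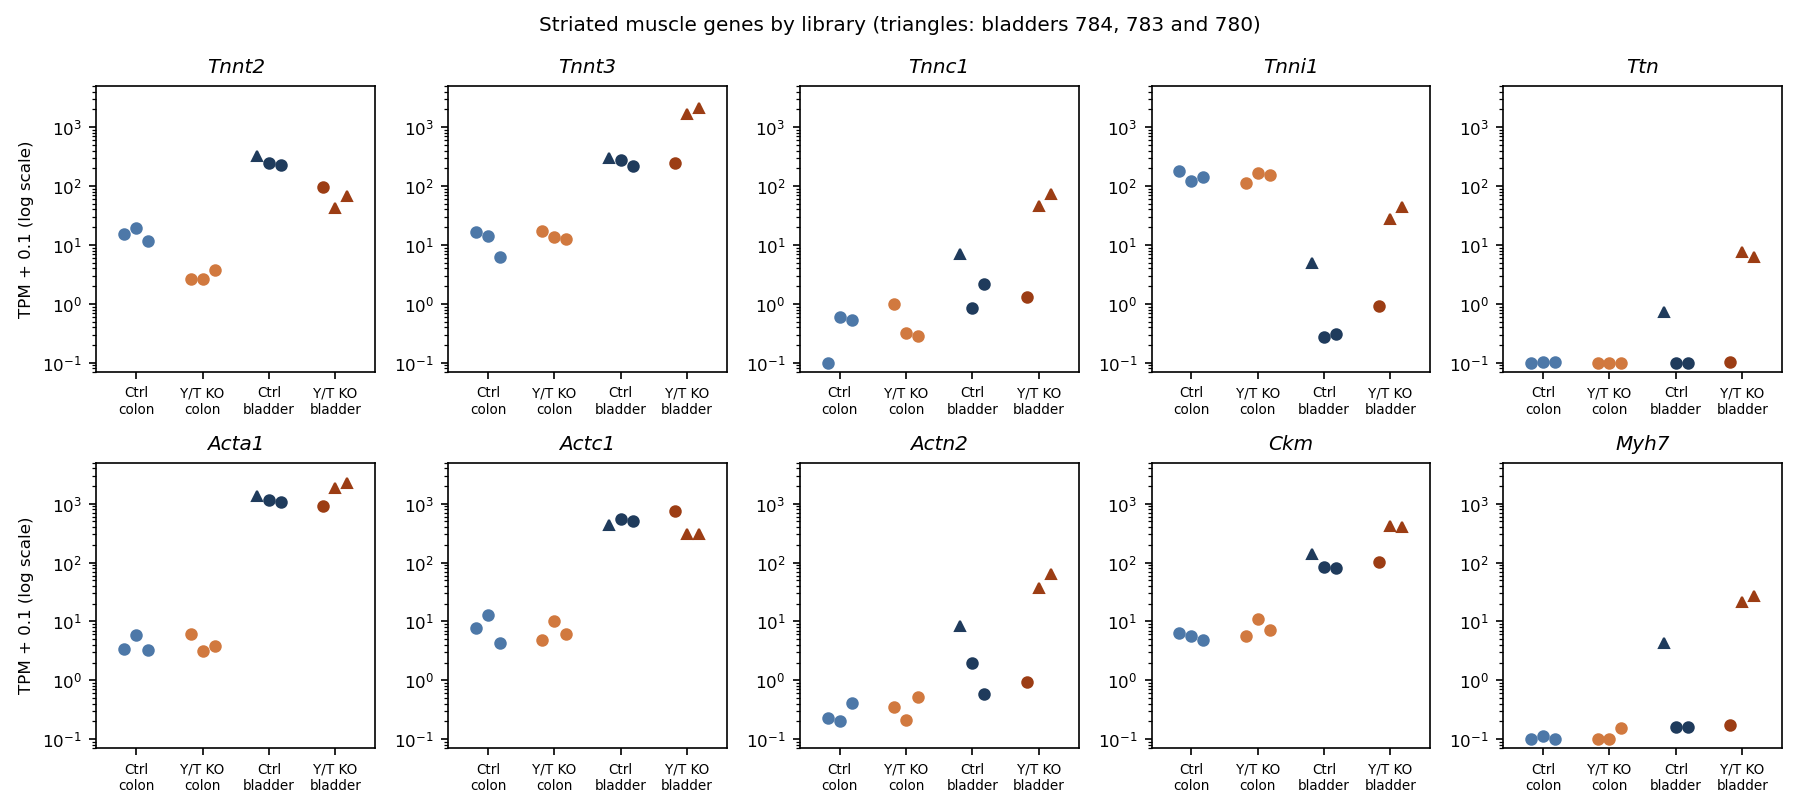
TPM + 0.1 on a log scale for each of the 10 genes, with 1 point per library in 4 groups. Triangles mark bladders 784, 783 and 780. *Tnnt2* is the gene whose Y/T KO points lie below all Ctrl points in both organs, and for *Tnnc1*, *Tnni1*, *Ttn*, *Actn2* and *Myh7* the triangles lie above the circles of the bladder.

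Between genotypes, *Tnnt2* was lower in every Y/T KO library of both organs, and the groups of the other 9 members overlapped in each organ. All 3 Y/T KO values lay below the Ctrl range in 8.28% of tested colon genes and 10% of tested bladder genes, and above it in 7.52% and 10.4%. With limma, 0.137% of 17500 colon genes were called (0.08% lower, 0.0571% higher), as were 0.302% of 18237 bladder genes (0.219% lower, 0.0823% higher). Among the members, 6 passed the filter on low values in the colon, of which *Tnnt2* was called lower. All 10 passed in the bladder, where 0 were called. *Tnni1*, *Ttn*, *Actn2* and *Myh7* passed there only through bladders 784, 783 and 780, and were not tested without them. An exact test of 3 against 3 mice cannot give a p under 0.1.

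*Tnnt2* encodes cardiac troponin T, which is also made in embryonic skeletal muscle. The gene lies on chromosome 1 (135836354 to 135852260, plus strand, GRCm38). In the colon the Ctrl mice had 15.2, 19.4 and 11.5 TPM, and the Y/T KO mice 2.56, 2.56 and 3.72 TPM. The 3 Y/T KO colons lay close together and below the lowest Ctrl colon. Their coverage was low, at 0.711, 0.604 and 0.837 reads over an average base, beside 2.52 to 5.04 in the Ctrl colons. Counting error was not estimated, so how well these low values were measured is not known. The group means were 15.4 ± 3.93 and 2.95 ± 0.669 TPM (SD, n = 3), so the Y/T KO mean was 0.191 of the Ctrl mean. On the scale of log2(rescaled TPM + 0.1) the difference was -2.30 (SE 0.24, limma adjusted p = 0.0329). The call was lost without the filter on low values (limma adjusted p = 0.0713) and without each of 5 colons in turn, and it held without Y/T KO mouse 759. Across the settings with all libraries the limma adjusted p ranged from 0.0052 to 0.0713, and with 1 library left out from 0.0381 to 0.110.

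Ctrl bladders had 322, 242 and 225 TPM of *Tnnt2*, and Y/T KO bladders 94.4, 42.3 and 66.7 TPM. The groups did not overlap. The Y/T KO mean of 67.8 ± 26.1 TPM (SD, n = 3) was 0.258 of the Ctrl mean of 263 ± 51.5 TPM. The log2 difference was -2.01 (SE 0.29), and its limma adjusted p of 0.0653 missed the threshold. It passed when all 12 libraries shared an estimate of the spread (limma adjusted p = 0.0124), and settings that kept all libraries gave limma adjusted p values between 0.0124 and 0.114. With 1 bladder left out the limma adjusted p was between 0.0536 and 0.246. Bladders 783 and 780, with the most skeletal muscle transcripts, had less *Tnnt2* than bladder 782, while among Ctrl mice bladder 784 had the most. Without bladders 784, 783 and 780 the difference was -1.33 (SE 0.31, limma adjusted p = 0.465), with mouse 782 assumed to vary like the other groups. In that fit 9 genes were called in all.

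The difference in *Tnnt2* between genotypes was also set against that of smooth muscle transcripts in the same library. Per 1000 TPM of *Myh11*, the smooth muscle myosin heavy chain, there were 42.9, 42.9 and 30.7 TPM of *Tnnt2* in the Ctrl colons and 13.6, 11.2 and 22.2 TPM in the Y/T KO colons. In the bladder the ratio was 131, 91.3 and 90.9 in Ctrl mice 784, 785 and 788 and 34.7, 22.1 and 44.5 in Y/T KO mice 782, 783 and 780. Every Y/T KO ratio was thus below every Ctrl ratio of the same organ. *Myh11* is also the gene whose promoter drives Cre. All 10 smooth muscle genes had a log2 difference below 0 in both organs, with medians of -0.49 in the colon and -0.67 in the bladder beside 0.01 and 0.00 for all genes tested, and 0 of the 10 were called in either organ. In the colon *Tnnt2* lay outside the range of the smooth muscle genes (-0.98 for *Myh11* to -0.10), as it did in the bladder (-1.16 for *Actg2* to -0.19). Without bladders 784, 783 and 780 7 of the 10 smooth muscle genes were below 0 in the bladder, with a median of -0.27 and a lowest value of -0.85 (*Actg2*), beside -1.33 for *Tnnt2*.

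**Figure D3:**
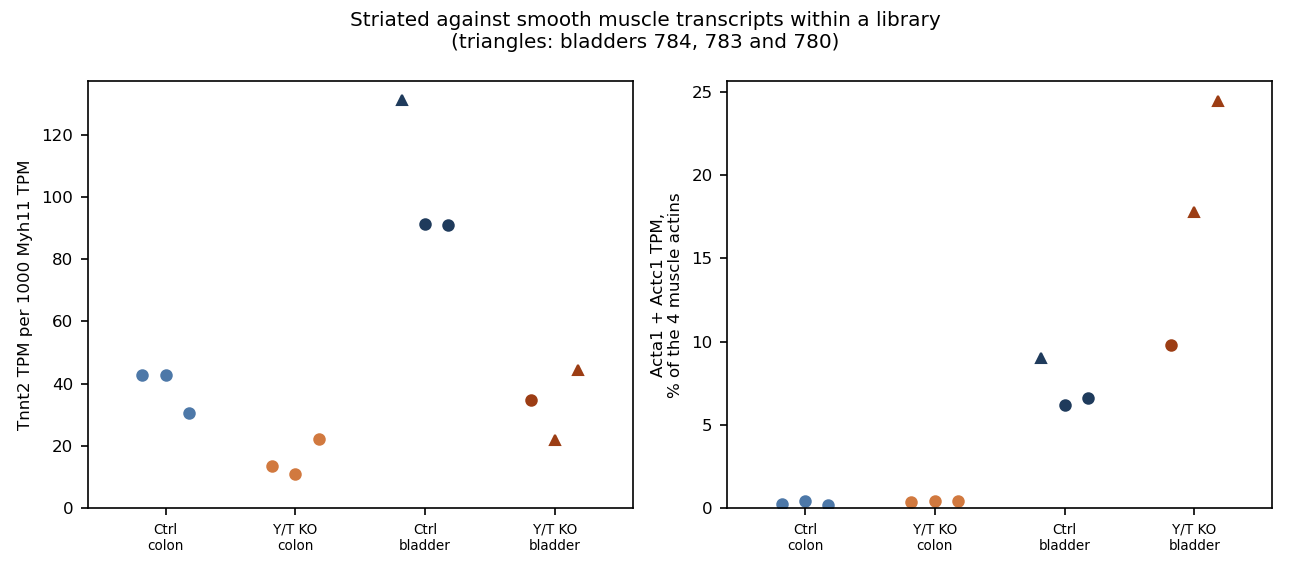
Left, *Tnnt2* TPM per 1000 *Myh11* TPM. Right, TPM of *Acta1* and *Actc1* as a percentage of the 4 muscle actins (*Acta1*, *Actc1*, *Acta2* and *Actg2*). Each point is a library and triangles are bladders 784, 783 and 780. Y/T KO points lie below all Ctrl points of the same organ on the left, and the highest points on the right, 17.8% and 24.4%, are Y/T KO bladders 783 and 780.

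The difference between genotypes in *Tnnt2* was not shown to differ between organs. The interaction of genotype and organ was 0.31 on the log2 scale (SE 0.38, limma adjusted p = 0.756), and 0.98 (SE 0.37, limma adjusted p = 0.742) without the 3 bladders. Among all genes tested for it, 0.0491% were called (0.0184% lower, 0.0307% higher), and 0 of the 6 members tested.

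*Tnni1*, slow skeletal troponin I, lies 25365 bases before *Tnnt2* on the same strand (chromosome 1, 135779434 to 135810989), and the values of these neighbors were unlike. Ctrl colons had 182, 122 and 142 TPM of *Tnni1*, and Y/T KO colons 114, 167 and 152 TPM. The genotypes overlapped over nearly their whole range. The log2 difference was -0.01 (SE 0.23, limma adjusted p = 0.996), beside -2.30 for *Tnnt2* in the same libraries. Ctrl bladders had 4.88, 0.177 and 0.207 TPM, and Y/T KO bladders 0.805, 27.8 and 44.1 TPM. Bladders 785, 788 and 782 were all below 1 TPM. *Lad1*, ladinin of epithelial basement membranes, which lies between the pair and was looked at for that position, was at 173 to 228 TPM over the 6 colons and at 37.6 to 55.4 TPM over the 6 bladders.

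*Tnnt3*, fast skeletal troponin T (chromosome 7, 142498836 to 142516009, plus strand), was at 16.5, 13.96 and 6.14 TPM in the Ctrl colons, beside 17.1, 13.5 and 12.3 TPM after Y/T KO. The log2 difference was 0.37 (limma adjusted p = 0.737). Ctrl bladders held 294, 277 and 222 TPM of it, and Y/T KO bladders 245, 1646 and 2110 TPM. The Y/T KO bladder with few skeletal muscle transcripts lay within the Ctrl range, and the other Y/T KO bladders were far above it. The log2 difference was 1.85 (SE 0.85, limma adjusted p = 0.378) with all bladders and -0.05 (SE 0.48) without bladders 784, 783 and 780. It passed the threshold, as higher in Y/T KO, in the fit that left out bladder 782 (2.85, limma adjusted p = 0.00943), which leaves in the Y/T KO group only the 2 bladders with the most skeletal muscle transcripts. *Tnnt3* and *Tnnt2* share 56.7% of their coding bases in the longest reading frames, with no shared stretch above 17 bases.

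*Tnnc1*, troponin C of cardiac and slow muscle (chromosome 14, 31208312 to 31211729, plus strand), was listed at 0 to 0.889 TPM in the 6 colons. The Ctrl bladders had 7.04, 0.762 and 2.06 TPM, and the Y/T KO bladders 1.23, 46.1 and 71.8 TPM. The colon thus held *Tnni1* at over 100 TPM without a comparable level of its troponin C. The gene overlaps *Nisch* on the other strand, which was at 82.5 to 102 TPM in the colon, where *Tnnc1* was near 0.

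*Acta1*, skeletal muscle actin (chromosome 8, 123891769 to 123894751, minus strand), was at 3.36, 5.76 and 3.18 TPM in the Ctrl colons, beside 5.95, 3.02 and 3.70 TPM after Y/T KO. Its log2 difference in the colon was 0.07 (SE 0.32, limma adjusted p = 0.954). In Ctrl bladders it reached 1331, 1137 and 1057 TPM, and in Y/T KO bladders 915, 1843 and 2244 TPM. The level was thus at 915 TPM or more also in bladders where *Myh4* was listed at 0. In these bladders (785, 788 and 782) 9, 7 and 7 of the 17 fast skeletal muscle genes still reached 1 TPM. The log2 difference of 0.41 (SE 0.35, limma adjusted p = 0.623) became -0.29 (SE 0.40) without bladders 784, 783 and 780. Neither passed the threshold.

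*Actc1*, cardiac actin (chromosome 2, 114047282 to 114053548, minus strand), was at 7.50, 12.8 and 4.18 TPM in the Ctrl colons, beside 4.78, 10.1 and 5.99 TPM after Y/T KO. Its values were 430, 542 and 511 TPM in Ctrl bladders, beside 756, 308 and 308 TPM after Y/T KO. The bladders with the most skeletal muscle transcripts had the least *Actc1*, whereas they had the most *Acta1*. The log2 difference was -0.24 (SE 0.34, limma adjusted p = 0.772) with all bladders and 0.49 (SE 0.56) without the 3, and -0.12 (SE 0.40, limma adjusted p = 0.939) in the colon.

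The sarcomeric actins were a minor share of muscle actin transcripts, under 1% in every colon and up to 24.4% in the bladder. *Acta1* and *Actc1* made up 0.249%, 0.468% and 0.176% of the TPM of the 4 muscle actins in the Ctrl colons and 0.404%, 0.466% and 0.453% in the Y/T KO colons. In the bladder their share was 9.01%, 6.23% and 6.65% in Ctrl mice 784, 785 and 788 and 9.82%, 17.8% and 24.4% in Y/T KO mice 782, 783 and 780. Every Y/T KO bladder was above every Ctrl bladder, by the least for mouse 782. In that mouse *Acta1* was the lowest of the 6 bladders (915 TPM) and *Actc1* the highest (756 TPM). The smooth muscle actins in the denominator had means of 10572 ± 1739 TPM (*Acta2*) and 11129 ± 2583 TPM (*Actg2*) in Ctrl bladder and of 5925 ± 1968 and 5146 ± 1971 TPM in Y/T KO bladder (SD, n = 3). Their log2 differences were -0.87 and -1.16 (limma adjusted p 0.178 and 0.187). *Acta1* and *Actc1* were identical in 86.2% of coding bases and shared no stretch above 29 bases. Either was identical to *Acta2* or *Actg2* in 82.5% to 85.4%, with the longest shared stretch, 38 bases, between *Actc1* and *Actg2*. Reads that the aligner could not tell apart between these actins would be split between them, and how far this occurred was not tested.

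*Actn2*, the sarcomeric form of alpha-actinin in the Z-disc, was at 0.104 to 0.419 TPM in the 6 colons. Ctrl bladders had 8.11, 1.89 and 0.486 TPM of it, and Y/T KO bladders 0.829, 37.1 and 63.2 TPM. Its counterpart *Actn1* differed between genotypes by -0.41 in the colon and -1.25 in the bladder (limma adjusted p 0.400 and 0.179). Without bladders 784, 783 and 780 the difference of *Actn1* in the bladder was -0.84. *Ttn*, the giant spring protein of the sarcomere, was at or below 0.0022 TPM in the colon. Among Ctrl bladders it was at 0.634 TPM in mouse 784 and listed at 0 in 785 and 788, and Y/T KO bladders had 0.0026, 7.45 and 6.09 TPM. *Myh7*, the myosin heavy chain of slow and cardiac muscle, reached 0.0536 TPM in the colon, with 4.13, 0.0624 and 0.0634 TPM in Ctrl bladders beside 0.0747, 20.9 and 27.2 TPM after Y/T KO. For *Ttn* and *Myh7*, as for *Tnni1*, bladders 784, 783 and 780 held all values above 1 TPM in this organ, and for *Actn2* and *Tnnc1* they held the 3 highest. Bladder 783 exceeded bladder 784 by 5.70 times for *Tnni1*, 6.55 for *Tnnc1*, 4.58 for *Actn2*, 11.8 for *Ttn* and 5.06 for *Myh7*, beside the median of 9.21 for the fast skeletal muscle genes. For bladder 780 over bladder 784 the values were 9.04, 10.2, 7.79, 9.62 and 6.59 in the same order, beside a median of 9.43. The log2 differences between genotypes in the bladder ran from 2.61 for *Actn2* to 3.79 for *Tnni1* over these 5 genes, with SE of 1.71 to 2.37 and limma adjusted p of 0.408 to 0.569.

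*Ckm*, the creatine kinase of muscle, which buffers ATP (chromosome 7, 19404776 to 19422841, plus strand), was at 6.37, 5.52 and 4.83 TPM in the Ctrl colons, beside 5.47, 10.7 and 6.97 TPM after Y/T KO. Ctrl bladders had 138, 85.1 and 82.0 TPM, and Y/T KO bladders 102, 414 and 404 TPM. Bladder 782 lay within the Ctrl range. The log2 difference was 0.45 in the colon (SE 0.28, limma adjusted p = 0.625), 1.38 in the bladder (SE 0.61, limma adjusted p = 0.366) and 0.27 (SE 0.36) without the 3 bladders. *Ckb*, the creatine kinase of brain and smooth muscle, was at 912 ± 32.7 TPM in Ctrl bladder and 822 ± 349 TPM in Y/T KO bladder (SD, n = 3).

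**Figure D4:**
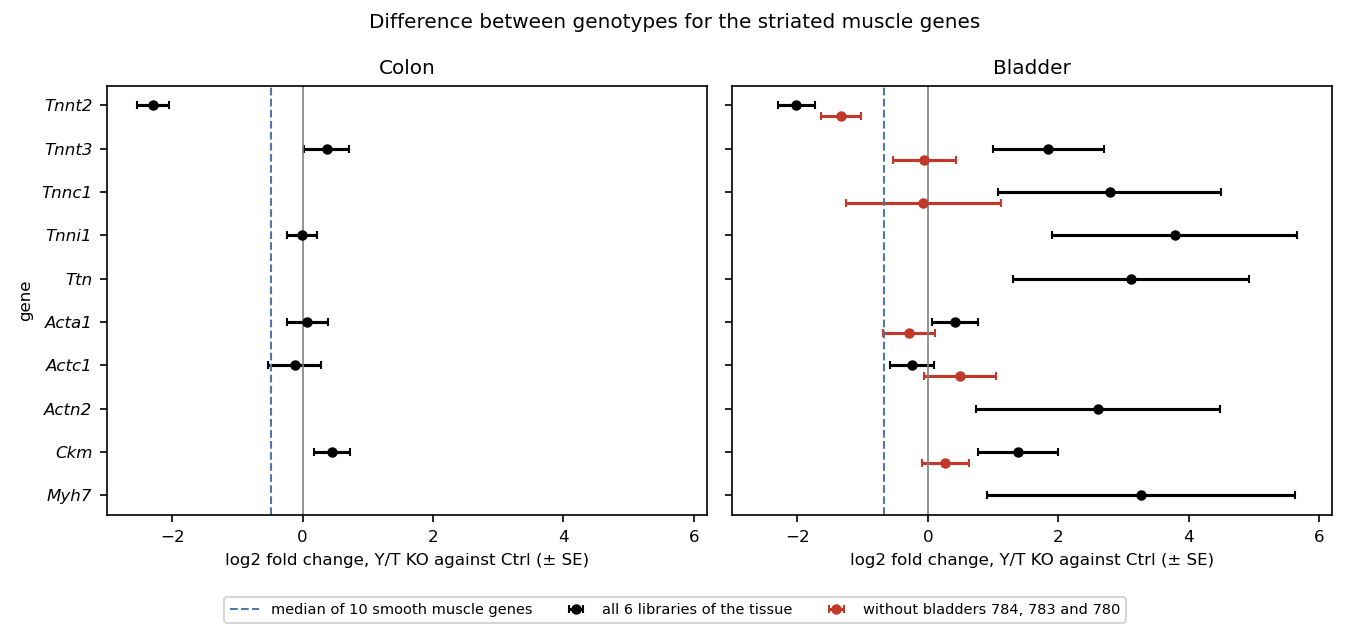
Log2 fold change of Y/T KO against Ctrl with its SE for the members tested in each organ, in black with all 6 libraries and in red without bladders 784, 783 and 780, the dashed line being the median of 10 smooth muscle genes. *Tnnt2* lies to the left of that line in both organs, and the black bladder points of 7 other genes lie above 1, of which *Tnnt3*, *Tnnc1* and *Ckm* lie at 0.27 or below in red and the rest were not tested without the 3 bladders.

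Other striated muscle genes were taken from 5 lists with 72 genes. In the colon 25 of them passed the filter on low values and 0 were called by limma, beside 0.137% of all genes. In the bladder 60 passed and 0 were called, beside 0.302% of all genes. Many of the 60 passed only through bladders 784, 783 and 780, where they were high, and 26 were tested without these bladders. When all 12 libraries shared an estimate of the spread, 1 was called in the bladder, *Myl4*, the atrial light chain of myosin. Ctrl bladders had 82.2, 128 and 145 TPM of it, and Y/T KO bladders 55.8, 29.0 and 35.1 TPM, without overlap. Its log2 difference was -1.58 (SE 0.27, limma adjusted p = 0.101) with 6 libraries and -1.31 (SE 0.37, limma adjusted p = 0.617) without bladders 784, 783 and 780. In the colon *Myl4* was at 3.64 to 5.83 TPM in both genotypes, with a difference of -0.04.

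The fast skeletal muscle list had a median log2 difference of 3.81 in the bladder, with 17 of 17 genes above 0, and of -0.35 over 5 genes tested in the colon. Without bladders 784, 783 and 780 only 8 of the 17 passed the filter, 4 above and 4 below 0, and their median was -0.01. *Eno3*, *Mylpf* and *Tnnc2* had its highest mean levels. *Mylpf*, the fast regulatory light chain, was at 165, 1.67 and 2.57 TPM in Ctrl bladders, beside 3.53, 1667 and 1410 TPM after Y/T KO. *Tnnc2*, fast troponin C, was at 175, 28.9 and 26.5 TPM, beside 24.4, 1402 and 1474 TPM after Y/T KO. In bladders without *Myh4*, then, *Tnnc2* was at 24.4 TPM or more, while in the colon it was at 0.311 TPM or less. *Tnni2*, fast troponin I, lies 54426 bases from *Tnnt3* and was looked at as its neighbor. It was at 18.3 TPM or more in every bladder. Ctrl colons had 1.53 to 2.14 TPM of it and Y/T KO colons 2.64 to 8.09 TPM, without overlap. The log2 difference in the colon was 1.13 (SE 0.43, limma adjusted p = 0.487), so *Tnni2* was not called. Fast forms of all 3 troponin subunits were therefore measured in bladders where *Myh4* was listed at 0. These bladders were not free of other fast skeletal muscle genes, of which *Casq1* and *Myh2* are given as examples. *Casq1* was at 7.78, 5.38 and 7.53 TPM in bladders 785, 788 and 782. *Myh2* was at 1.75 TPM in bladder 785 and listed at 0 in bladders 788 and 782. Which cells these transcripts came from was not tested.

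In the list of cardiac and slow muscle genes, 8 of 12 tested in the bladder were above 0, with a median of 2.99. Without the 3 bladders, 2 of the 5 tested were above 0 and the median was -0.18. *Casq2*, cardiac calsequestrin, was at 66.6, 78.3 and 31.9 TPM in Ctrl bladders, beside 51.9, 33.9 and 36.1 TPM after Y/T KO. *Mybpc1*, slow myosin-binding protein C, was at 14.9, 1.23 and 0.198 TPM, beside 9.56, 119 and 159 TPM after Y/T KO, so its levels were higher in the 3 bladders with skeletal muscle transcripts and those of *Casq2* were not. The list of scaffold and Z-disc genes had 18 of 19 above 0 in the bladder (median 3.03), and 5 of 7 (median 0.62) without the 3 bladders. *Myom1*, which crosslinks the myosin filaments of the M-band, was at 94.4, 112 and 87.1 TPM in Ctrl bladders, beside 138, 122 and 140 TPM after Y/T KO. *Tcap*, which caps titin, was at 20.2, 1.46 and 2.19 TPM, beside 9.43, 133 and 275 TPM after Y/T KO. *Myom1* did not overlap between genotypes and was not called (0.45, SE 0.12, limma adjusted p = 0.189). *Smpx*, a small muscle protein, resembled *Tnni1* in its place between organs. It was at 0.242 to 0.452 TPM in bladders 782, 785 and 788, and at 7.85, 32.5 and 35.1 TPM in bladders 784, 783 and 780. Ctrl colons had 45.1 to 53.4 TPM of *Smpx* and Y/T KO colons 35.9 to 42.2 TPM, without overlap, whereas *Tnni1* overlapped there. The log2 difference of *Smpx* in the colon was -0.35 (SE 0.14, limma adjusted p = 0.492), not called. *Ckmt2* and *Nrap*, looked at for this likeness, were at 4.83 to 6.17 and 4.71 to 7.49 TPM in the 6 colons. Both were at 0.243 TPM or less in bladders 782, 785 and 788. In bladders 784, 783 and 780 *Ckmt2* was at 12.4, 48.3 and 47.6 TPM and *Nrap* at 3.86, 23.0 and 48.4 TPM.

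Of the excitation-contraction coupling genes, 7 of 10 were above 0 in the bladder (median 1.13), and 3 of 6 (median 0.22) without the 3 bladders. *Trdn* (triadin, which anchors calsequestrin) was at 26.2, 14.5 and 13.4 TPM in Ctrl bladders, beside 35.2, 61.4 and 72.5 TPM after Y/T KO, with every Y/T KO bladder above every Ctrl bladder, and at 0.0449 TPM or less in the colon. Its log2 difference of 1.64 (SE 0.38) had a limma adjusted p of 0.159, and 1.30 (SE 0.48) without bladders 784, 783 and 780 one of 0.909. *Jph2* (junctophilin) differed by -0.40, and by -0.14 without them, and *Asph* (whose locus also gives junctin) by 0.56 and 0.43, neither called. Of the skeletal muscle lineage genes, 2 of 10 passed the filter in the bladder (*Myf6* and *Musk*) and 1 in the colon (*Musk*), with none called, and *Myog* had its highest value, 1.96 TPM, in bladder 783. Between Ctrl organs, 16 of the 60 other striated genes tested were called higher in bladder and 1 lower (*Smpx*, -5.63, SE 1.69), beside 25.3% and 25.1% of all genes. The largest of these were *Tnnc2* (7.56) and *Trdn* (6.97). Without bladders 784, 783 and 780, 18 of 36 were called higher and 5 lower, beside 21.9% and 21.8% of all genes. The 5 lower genes, with log2 differences from -6.98 to -1.13, were *Smpx*, the mitochondrial creatine kinase gene *Ckmt2*, *Nrap*, *Tmod4* and *Mylpf*.

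Marker lists of other cell types were set beside these values. Bladders 783 and 780 had the lowest summed smooth muscle markers, 24291 and 20096 TPM beside 36849 TPM in bladder 782 and 38815 to 51936 TPM in the Ctrl bladders, and the lowest summed mesothelial markers, 155 and 212 TPM beside 298 to 497 TPM in the other 4. The 6 genes of the mesothelial list (*Msln*, *Upk3b*, *Lrrn4*, *Wt1*, *Gpm6a* and *Krt14*) were all below 0 in the bladder. Their median was -1.07 and the lowest was *Krt14* at -2.18. Without bladders 784, 783 and 780, 5 of 6 were below 0 (median -0.29). Whether other cells of the bladder made these transcripts was not tested. Median log2 differences were -0.07 for epithelium, -0.04 for fibroblasts, 0.31 for neurons and 0.20 for endothelium in the bladder, and 0.06, 0.22, -0.26 and 0.00 in the colon, where that of mesothelium was -0.02. Without the 3 bladders the bladder medians were -0.12, -0.02, 1.08 and 0.16, the neuronal one over 5 of its 6 genes. None of these marker genes was called in any of these fits. The part of cell composition in the values of the members was not tested.

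Likeness to *Tnnt2* was measured by Pearson's r of log2 levels over the 12 libraries with each organ's mean taken off, among 14812 genes. The highest were *Lims2* (0.93), *Chrm3* (0.92), *Rhbdl2* (0.92), *Msl3* (0.92) and *Gm11627* (0.92). *Lims2*, a LIM adaptor at integrin adhesions, was at 28.4, 26.9 and 27.8 TPM in the Ctrl colons, beside 5.43, 9.52 and 7.76 TPM after Y/T KO. Ctrl bladders had 109, 160 and 94.2 TPM of it, and Y/T KO bladders 61.5, 39.7 and 40.2 TPM. *Chrm3*, the muscarinic receptor that drives contraction of gut and bladder, ranged from 1.64 to 3.97 TPM in Ctrl colons and from 0.585 to 1.12 TPM in the Y/T KO ones. For *Acta1* the highest were *Sox6* (0.93), *Alg11* (0.92), *Atg4c* (0.91), *Necap1* (0.91) and *Hipk3* (0.91), genes in whose values bladders 783 and 780 are also the highest of the 6 bladders. The libraries behind each r are shared, and genotype is part of what they share, so these are descriptions.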

How the data were processed

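Total RNA of colon and bladder tissue was made into stranded libraries of messenger RNA. The submitters' processing notes name HISAT2, StringTie and DESeq2 and the build GRCm38, and StringTie gave a gene table per library. The TPM values deposited by the authors are length-scaled shares of a library's transcripts, with a fixed sum. The FPKM values and the coverage (mean reads over a base) were also deposited by the authors. FPKM served as an alternative, and the ratio of coverage to FPKM gave the depth of each library in aligned bases. Counts, on which the authors tested, were not used here. The strand setting of StringTie was not given in the sources used here.

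Here TPM was summed by gene ID, divided by median-of-ratios size factors (0.966 to 1.11 within an organ) and tested as log2(TPM + 0.1), keeping genes at 0.5 TPM or more in 3 or more libraries, with limma 3.58.1 in R 4.3.3 (trend and robust), Benjamini-Hochberg adjustment over all genes and two-sided p. A fold change on this scale understates that of low genes. Genotypes were fitted within an organ, and organs and the interaction over 12 libraries. The fits were tested on simulated data.

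Members and gene lists were chosen with earlier results of these data known. The text names all members, their smooth muscle counterparts, per list any gene called and the 3 with the highest mean TPM, and the 5 genes most like *Tnnt2* and *Acta1*. Genes named for other reasons are said so. Labels give 1 mouse number per library, and 3 mice gave both organs. Deviations from group means in these pairs correlated at -0.01, 0.07 and 0.04, and the mouse was a block in an alternative fit. Of 66 library pairs, none held more than 2 equal nonzero values. Alternatives were other pseudocounts, filters, scaling, FPKM, one fit of all libraries, and each library left out. Coding identity came from GENCODE M21 transcripts and promoters from RefSeq. Counting error was not estimated.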

Additional observations from a re-analysis of the deposited data

How the results depend on the processing

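Without the filter on low values the genes called between genotypes numbered 6 in the colon (24 with it), with 0 of the members (1 with it), and those called for the interaction 13 (8 with it), of which 8 lower and 5 higher. One fit of all 12 libraries called 75 colon genes and, in the bladder, 1 member (*Tnnt2*) and 1 other striated gene (*Myl4*). With 1 library left out, the genes called ran from 5 to 63 in the colon, 11 to 51 in the bladder (55 with all) and 6 to 28 for the interaction, members called from 0 to 1 in each organ, and other striated genes called between Ctrl organs from 13 to 27 (17 with all). Leaving out any of the 6 colons moved the colon count by over 1.5 times, down to 5 without Ctrl mouse 786 or Y/T KO mice 783 or 780 and up to 63 without Y/T KO mouse 759. In the bladder the count was 11 without Ctrl mice 785 or 788, 19 and 25 without Y/T KO mice 783 and 780, and 29 without Ctrl mouse 784. The 27 other striated genes were called without Y/T KO bladder 782, and the 28 interaction calls came without Y/T KO colon 759. Without bladders 784, 783 and 780, an alternative chosen after the data were seen, 9 genes were called in the bladder, and *Acta1* (-0.29), *Tnnt3* (-0.050), *Actc1* (0.49) and *Tnnc1* (-0.069) changed sign. In the colon the small differences of *Tnni1* (-0.20 to 0.17), *Acta1* (-0.20 to 0.29), *Tnnt3* (-0.026 to 0.66) and *Actc1* (-0.48 to 0.21) changed sign with 1 library left out. The cause was not tested. The replicate block by mouse gave 10 interaction calls and changed no other call among members between Ctrl organs. In all, 69 of 84 recomputed member values in the colon, 133 of 139 in the bladder and 198 of 200 between Ctrl organs kept direction and side of the threshold. Per-base coverage limits the low members: that of *Ttn* in Ctrl colons was at most 0.00321 (reads over an average base), so no difference could be detected there.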
